A study of Mus musculus with 62 samples.

Results

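A set of 8 homeodomain transcription factors known for building inhibitory neurons of the forebrain is described here across all 15 groups of a mouse RNA sequencing series: Dlx1, Dlx2, Dlx5, Dlx6, Lhx6, Nkx2-1, Isl1 and Meis2. They were chosen by gene symbol, and all 8 were found among the 23038 genes listed. The series deletes Nova1, the gene of a neuronal RNA-binding protein, in inhibitory neurons of mice and, by a virus carrying Cre, in cultured neurons. Mice labelled cKO were set against mice labelled cHet, both on the BL6 background, in hypothalamus, caudate putamen, periaqueductal gray and substantia nigra (n = 4 per genotype) and in pituitary (n = 3 per genotype), all at postnatal day 21. Translating ribosome affinity purification (TRAP), which recovers RNA held by tagged ribosomes, was done on whole brain of cKO and cHet pups at postnatal day 0 (n = 6 per genotype). Primary neurons of ventral diencephalon and mesencephalon, plated from mid-gestation embryos, received lentivirus on day 7 in vitro and gave RNA on day 14. The viruses carried GFP, Cre and Impact (labelled Nova1 KO + Impact), GFP and Cre (Nova1 KO), or GFP alone (WT), with n = 4 each. No source used here names the driver of the Cre or of the ribosome tag, or spells out cHet. The labels do not say which libraries came from the same animal, so p-values measure the spread between these samples.

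The Dlx factors bind DNA through a homeodomain and are needed in the embryonic ganglionic eminences, where they promote the making and migration of GABAergic neurons. Nkx2-1 marks the medial eminence and the ventral hypothalamus and switches on Lhx6, a LIM homeodomain factor of cortical and striatal interneurons. Isl1, another LIM homeodomain factor, acts in striatal projection neurons, cholinergic neurons, arcuate neurons and pituitary, and Meis2 is a cofactor of the TALE class that is abundant in striatal projection neurons. GABAergic neurons of midbrain and hindbrain instead depend on other factors, among them members of the Gata and Tal families, to which Gata3 and Tal1 belong.

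The Dlx genes lie in pairs that are transcribed towards each other. Dlx1 (GRCm38 chr2:71528113-71533981, plus strand) and Dlx2 (chr2:71543408-71546754, minus strand) are 9.4 kb apart, and Dlx6 (chr6:6863334-6868568, plus strand) and Dlx5 (chr6:6877805-6882085, minus strand) are 9.2 kb apart. Non-coding genes on the other strand cover the whole of Dlx1 (Dlx1as, 5869 bases shared) and of Dlx6 (Dlx6as1, 5235 bases shared). Whether the authors counted by strand is not given, so reads of these genes and of their antisense partners cannot be told apart. Lhx6 lies at chr2:36081953-36105408, Nkx2-1 at chr12:56531958-56536908, Isl1 at chr13:116298281-116309689 and Meis2 at chr2:115863064-116065839, all on the minus strand.

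Of the 8 genes, 6 had an entry in RefSeq's promoter table for GRCm38.p6, and the 250 bases before the start are printed for 3 of them. Dlx2 stands for the Dlx1 and Dlx2 pair, while Isl1 and Nkx2-1 are shown because their levels ran together over the groups. They lie at chr2:71546755-71547004, chr13:116309689-116309938 and chr12:56536909-56537158 and read 5′ to 3′ on the minus strand. No letters are in capitals because no searched motif was found in them.
Dlx2: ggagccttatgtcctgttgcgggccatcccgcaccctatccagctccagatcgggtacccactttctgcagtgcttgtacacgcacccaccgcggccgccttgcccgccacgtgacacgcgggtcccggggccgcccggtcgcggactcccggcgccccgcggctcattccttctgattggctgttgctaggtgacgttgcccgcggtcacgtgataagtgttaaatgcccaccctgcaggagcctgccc
Isl1: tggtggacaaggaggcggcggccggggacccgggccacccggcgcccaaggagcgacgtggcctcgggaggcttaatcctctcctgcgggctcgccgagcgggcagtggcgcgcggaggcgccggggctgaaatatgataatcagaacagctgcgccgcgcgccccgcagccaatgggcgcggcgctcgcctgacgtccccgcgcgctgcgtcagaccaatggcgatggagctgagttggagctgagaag
Nkx2-1: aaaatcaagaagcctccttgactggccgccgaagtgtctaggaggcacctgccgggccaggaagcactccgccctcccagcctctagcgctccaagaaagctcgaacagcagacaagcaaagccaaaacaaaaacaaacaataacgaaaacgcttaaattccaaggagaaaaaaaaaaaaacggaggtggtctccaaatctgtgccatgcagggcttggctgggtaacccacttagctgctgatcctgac
The motifs searched on both strands were a homeodomain core (TAATTA), a MEIS motif (TGACAG) and an NKX2-1 motif (CAAGTG). Among 32851 promoter windows of this length, 4.84% held the first, 15.9% the second and 11.6% the third, and no window of the 6 genes held any of them. The Isl1 window had 33 CpG dinucleotides and the Dlx2 window 24, against 9 in the Nkx2-1 window and a median of 6.0 over all windows.

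Total tags per library were lowest in pituitary (2.24 to 3.1 M) and ran from 7.38 to 29.5 M elsewhere. Levels are counts per M of scaled library size (CPM), with scaling factors computed over all 62 libraries. For 1 library (caudate putamen cKO 1) title and tissue tag disagree, the title giving periaqueductal gray. It was grouped by the tag. Marker genes of striatal projection neurons (6 genes) summed to at least 3860 CPM in every library of its group. In periaqueductal gray of cKO mice they summed to at most 82.2 CPM. Of the factors studied here, the library held 16.1 CPM of Dlx1 and 397 CPM of Meis2. The other libraries of its group held 15.1 to 17.0 CPM of Dlx1 and 381 to 393 CPM of Meis2. Nova1 was lower in cKO in TRAP (16.7 ± 3.16 CPM in cKO, 134 ± 12.2 CPM in cHet; SD, n = 6 each), in hypothalamus (log2 fold change -0.61), caudate putamen (-1.86) and substantia nigra (-1.14), all past an adjusted p of 0.05 in edgeR's quasi-likelihood test. In periaqueductal gray (-0.30, adjusted p = 0.114) and pituitary (-0.85, adjusted p = 0.761) it was not. Neurons labelled Nova1 KO held 15.9 ± 2.05 CPM and WT neurons 194 ± 9.58 CPM (SD, n = 4 each).

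Levels of the 8 factors set the tissues apart by orders of magnitude. The 4 Dlx genes and Lhx6 were plainly present in hypothalamus, caudate putamen, TRAP and cultured neurons, and under 1 CPM in every library of periaqueductal gray and substantia nigra. In pituitary they were at 0 to 1.49 CPM, except for Dlx5 in cKO replicate 3 (3.36 CPM, from 10 tags). Nkx2-1 and Isl1 were present in pituitary too, and Meis2 in every group. Among cHet libraries of the 4 brain regions, each of the 8 factors differed between regions (edgeR, adjusted p at most 2.52e-14), where 84.2% of all genes tested did so.

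**Figure D1:**
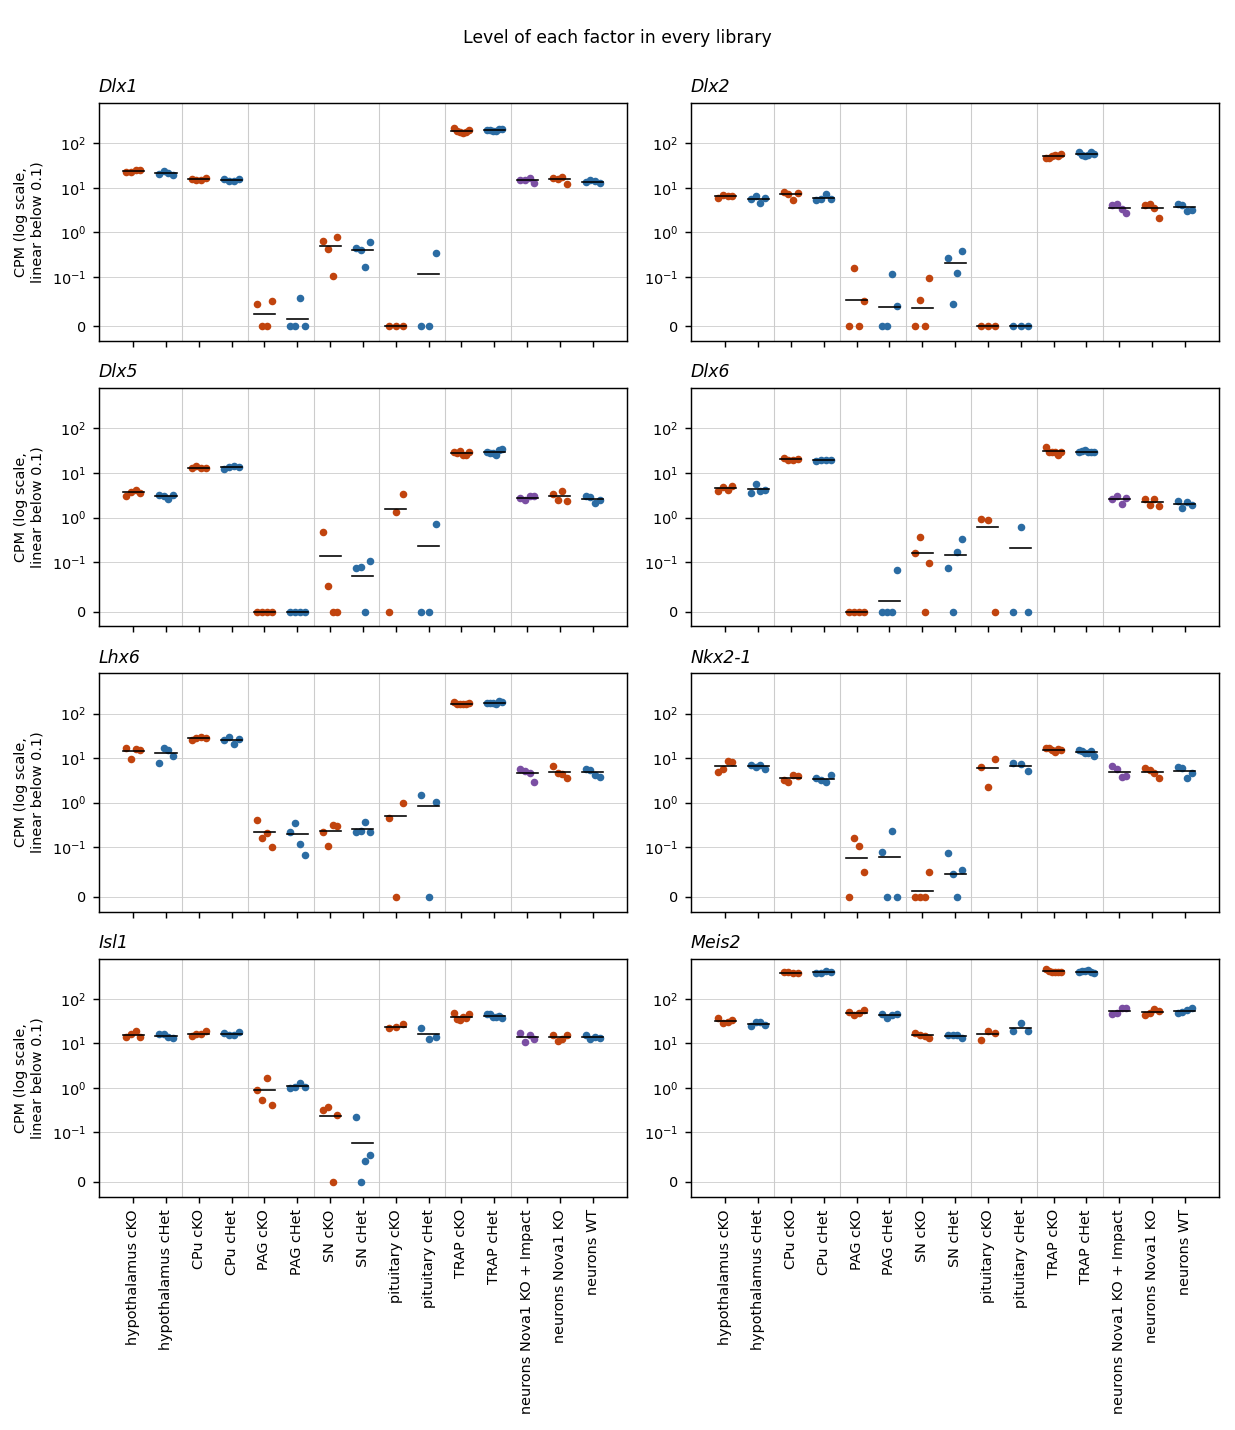
Level of each of the 8 factors in every library, in CPM on a log scale that is linear below 0.1. Points are libraries (orange cKO or Nova1 KO, purple Nova1 KO + Impact, blue cHet or WT) and lines are group means; the Dlx genes are under 1 CPM in periaqueductal gray (PAG) and substantia nigra (SN) and at most 1.32 CPM in pituitary apart from 1 cKO library with 3.36 CPM of Dlx5, while Meis2 stays between 12.1 and 474 CPM in all groups, caudate putamen (CPu) and TRAP being high.

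Dlx1 was at 22.7, 23.3, 25.2 and 25.7 CPM in hypothalamus of cKO mice, and at 20.8, 24.0, 21.2 and 19.0 CPM in hypothalamus of cHet mice. Caudate putamen held 16.1, 15.1, 15.1 and 17.0 CPM of Dlx1 in cKO mice, and 16.2, 14.4, 14.0 and 15.5 CPM in cHet mice. Every hypothalamus library thus held more Dlx1 than every caudate putamen library, whatever the genotype. How many of all genes separate these regions in this way was not computed. In the cHet mice Dlx1 was higher in hypothalamus than in caudate putamen by a log2 fold change of 0.51 (SE 0.12, edgeR adjusted p = 0.000857).

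Dlx5 ran the other way. It was at 3.13, 3.11, 2.55 and 3.18 CPM in hypothalamus of cHet mice, against 12.4, 13.7, 14.2 and 13.4 CPM in their caudate putamen (-2.16, SE 0.16, adjusted p = 2.74e-10). Dlx6, its neighbour, was at 3.56, 5.55, 3.91 and 4.25 CPM in hypothalamus of cHet mice, against 18.7, 19.8, 20 and 19.6 CPM in their caudate putamen (-2.16, SE 0.18, adjusted p = 2.32e-10). The regions did not overlap for either gene, and the share of all genes without such overlap was not computed. Dlx2 was not called between these regions, at 5.71 ± 0.900 CPM in hypothalamus and 6.0 ± 0.794 CPM in caudate putamen (SD, n = 4 each; -0.06, 95% interval -0.48 to 0.36).

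The balance of the pairs was expressed as the ratio of Dlx1 plus Dlx2 to Dlx5 plus Dlx6, with each level divided by exon length. This ratio was 1.3 ± 0.0790 in hypothalamus of cKO mice and 1.27 ± 0.1 in that of cHet mice, against 0.244 ± 0.0185 in caudate putamen of cKO mice and 0.227 ± 0.0121 in that of cHet mice (SD, n = 4 each). The lowest hypothalamus library of either genotype (1.17) was above the highest caudate putamen library (0.262). Whole-brain TRAP RNA gave 1.45 ± 0.113 in cKO and 1.51 ± 0.0783 in cHet (SD, n = 6 each), and cultured neurons gave 1.2 ± 0.185 with Nova1 KO + Impact, 1.3 ± 0.236 with Nova1 KO and 1.34 ± 0.115 with WT (SD, n = 4 each). This ratio was chosen after the levels had been seen and carries no test of its own.

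**Figure D2:**
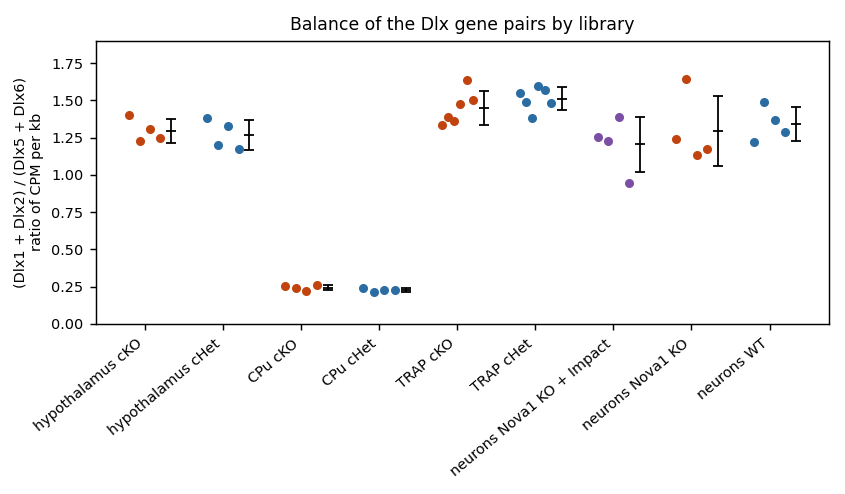
Ratio of Dlx1 plus Dlx2 to Dlx5 plus Dlx6 (CPM per kb of exon) by library, in the groups where all 4 genes were measured. Points are libraries, and dashes with bars are the mean and SD; caudate putamen (CPu) lies between 0.213 and 0.262 and all other groups between 0.949 and 1.64.

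Lhx6 and Meis2 were also lower in hypothalamus than in caudate putamen of cHet mice, and Nkx2-1 was higher. Lhx6 was at 7.64, 17.3, 15.1 and 11 CPM in hypothalamus and at 25.6, 29.7, 20.5 and 27.4 CPM in caudate putamen (-1.01, SE 0.17, adjusted p = 2.97e-05). The lowest Lhx6 value in hypothalamus was in cHet 1, and the highest there was still under every caudate putamen library. Meis2 was at 25.1, 29.9, 29.9 and 26.3 CPM in hypothalamus and at 384, 375, 423 and 398 CPM in caudate putamen (-3.82, SE 0.08, adjusted p = 2.08e-21). Nkx2-1 was at 6.99, 6.49, 7.12 and 5.69 CPM in hypothalamus and at 3.60, 3.23, 2.90 and 4.14 CPM in caudate putamen (0.93, SE 0.22, adjusted p = 0.000804). Neither Meis2 nor Nkx2-1 nor Lhx6 overlapped between the 2 regions, again without a share of all genes to set beside it. Isl1 was not called, at 14.9 ± 1.48 and 16.3 ± 1.17 CPM in hypothalamus and caudate putamen (SD, n = 4 each; -0.12, 95% interval -0.38 to 0.14). In all, 6 of the 8 factors differed between these regions, 2 higher and 4 lower in hypothalamus, where 57.8% of all genes tested did so, 29% higher and 28.9% lower.

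Per kb of exon, Meis2 made up 62% ± 1.5 of the summed level of the 8 factors in caudate putamen of cHet mice, followed by Dlx6 with 14.8% ± 0.406 (SD, n = 4). In hypothalamus of cHet mice the largest shares were 18.8% ± 0.836 for Dlx1, 18.6% ± 1.16 for Meis2 and 13.8% ± 1.52 for Dlx6, and the smallest was 7.39% ± 1.10 for Dlx5. The sum itself was 29.0 ± 3.04 CPM per kb in hypothalamus and 123 ± 3.86 CPM per kb in caudate putamen. In bulk tissue, fewer cells of a type and less RNA per cell cannot be told apart.

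Periaqueductal gray held almost no RNA of the Dlx genes. Over the 4 cHet libraries it had 1 tag of Dlx1, 3 of Dlx2, 0 of Dlx5 and 2 of Dlx6, against 1354, 540, 1210 and 1758 tags in caudate putamen of cHet mice. A count of 0 allows up to 0.0405 tags of Dlx5 per M of unscaled total tags. Over scaled library sizes, the level of Dlx5 was at least 360-fold lower in periaqueductal gray than in caudate putamen, taking 3 tags over the group as the floor. For Dlx6 the ratio of caudate putamen over periaqueductal gray was 785, with a counting interval of 217 to 6490. Substantia nigra of cHet mice had 34 tags of Dlx1, 17 of Dlx2, 6 of Dlx5 and 12 of Dlx6, still far below the forebrain regions. Intervals and floors cover counting error only.

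All 8 factors were lower in periaqueductal gray than in caudate putamen of cHet mice, and all 8 were higher in caudate putamen than in substantia nigra and in hypothalamus than in substantia nigra. The shares of all genes called in these contrasts were 61.5% (30.8% lower in periaqueductal gray), 67.1% (34% higher in caudate putamen) and 64.3% (35% higher in hypothalamus). Between hypothalamus and periaqueductal gray all 8 were called as well (27.7% of all genes, 14.4% higher and 13.3% lower in hypothalamus), 7 higher in hypothalamus, while Meis2 was lower there (-0.60, SE 0.08, adjusted p = 1.52e-06). Meis2 was at 46.4, 36.9, 44.1 and 44.5 CPM in periaqueductal gray of cHet mice, and at 14.9 ± 0.979 CPM in their substantia nigra (SD, n = 4). Meis2 was the only factor of the 8 above 2 CPM in either midbrain region, and it was higher in periaqueductal gray than in substantia nigra (1.60, SE 0.08, adjusted p = 8.88e-14).

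Isl1 was low but measurable in periaqueductal gray of cHet mice, at 0.992, 1.04, 1.27 and 1.05 CPM, against 0.220, 0, 0.0413 and 0.0542 CPM in substantia nigra (3.74, SE 0.39, adjusted p = 2.61e-08). Between these midbrain regions 5 of the 8 factors were called, 2 higher in periaqueductal gray and 3 lower, beside 60.5% of all genes (32.3% higher, 28.2% lower). Dlx1 and Dlx5 were lower in periaqueductal gray, and Dlx2 also (adjusted p = 0.0206), but for Dlx2 the adjusted p was 0.0510 to 0.0739 without periaqueductal gray cHet 1 or 2 or substantia nigra cHet 1 or 4. Dlx6 missed the threshold (adjusted p = 0.0539) and passed it without any of 5 libraries, with adjusted p of 0.0124 to 0.0497 (hypothalamus cHet 1 or 2, periaqueductal gray cHet 4, substantia nigra cHet 1 or 2). These differences rest on 0 to 34 tags per group.

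The near absence of Dlx RNA in the midbrain regions stood beside abundant RNA of GABA synthesis genes. Gad1, which encodes the GABA-making enzyme GAD67, was at 441 ± 35.1 CPM in periaqueductal gray and 895 ± 44.3 CPM in substantia nigra of cHet mice, and at 426 ± 25.6 CPM in hypothalamus and 759 ± 15.1 CPM in caudate putamen (SD, n = 4 each). Slc32a1, the vesicular GABA transporter, was at 84.2 ± 5.32 and 152 ± 3.98 CPM in periaqueductal gray and substantia nigra. Gata3 was at 22.4 ± 1.37 CPM in periaqueductal gray and 22.4 ± 2.13 CPM in substantia nigra, against 0.399 ± 0.317 CPM in hypothalamus and 0.0246 ± 0.0492 CPM in caudate putamen. Tal1 was likewise at 17.9 ± 1.32 and 20.8 ± 1.82 CPM in the midbrain regions, against 1.08 ± 0.325 CPM in hypothalamus and 0.731 ± 0.148 CPM in caudate putamen.

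**Figure D3:**
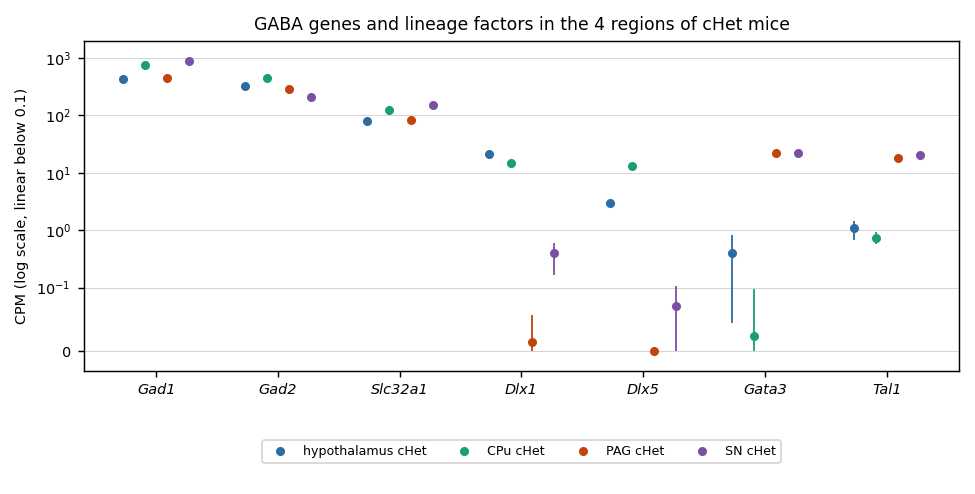
Level of 3 GABA genes, 2 Dlx genes and 2 further factors in the 4 brain regions of cHet mice, in CPM on a log scale that is linear below 0.1. Points are means of 4 libraries and bars run to the lowest and highest library; Gad1 is at 426 CPM or more in all regions, while Dlx1 and Dlx5 are near 0 in periaqueductal gray (PAG) and substantia nigra (SN), where Gata3 and Tal1 are near 20 CPM.

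The pituitary kept part of the set. Isl1 was at 21.9, 12.7 and 13.6 CPM in pituitary of cHet mice and at 14.9 ± 1.48 CPM in their hypothalamus, a log2 difference of 0.14 (95% interval -0.28 to 0.57) that was not called. Nkx2-1 was at 7.95, 7.27 and 5.25 CPM in pituitary and 6.57 ± 0.648 CPM in hypothalamus (0.05, 95% interval -0.50 to 0.61). The 4 Dlx genes and Lhx6 were lower in pituitary, so 5 of 8 factors were called, beside 68.7% of all genes (35.7% lower). Dlx2 had 0 tags in all 6 pituitary libraries. Per M of unscaled total tags, this allows up to 0.376 over the 3 cHet libraries and 0.395 over the 3 cKO libraries. Meis2 was not called (-0.31, adjusted p = 0.112), but it was lower in pituitary without cHet replicate 2 of that gland (-0.53, adjusted p = 0.0123). Library set and tissue cannot be told apart in this contrast.

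In scaled CPM, TRAP libraries of the newborn brain had the highest group means of all 8 factors, although for Meis2 single libraries overlapped with caudate putamen (390 to 474 CPM in TRAP cKO, 384 to 433 CPM in TRAP cHet). For Meis2 that rank depends on the scaling factors, which were 0.74 to 0.86 in TRAP and 1.05 to 1.09 in caudate putamen. Relative to unscaled total tags, Meis2 was higher in caudate putamen than in TRAP. In TRAP of cKO pups the lowest, median and highest levels were 173, 185 and 225 CPM for Dlx1, and in cHet 190, 200 and 208 CPM. For Lhx6 they were 162, 167 and 180 CPM in cKO and 164, 174 and 191 CPM in cHet. Genotypes overlapped for all 8 factors (0.461% of all genes tested did not overlap). Meis2 took 30.6% ± 0.716 of the summed level per kb in cKO and 29.6% ± 1.63 in cHet, Dlx1 18.7% ± 0.581 and 19.1% ± 0.480, and Lhx6 18.3% ± 0.669 and 18.6% ± 0.707 (SD, n = 6 each). Age, purification and tissue all differ between these libraries and the day 21 regions, so no test was made between them.

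In cultured neurons all 8 factors had enough tags to be tested. Meis2 was at 46.6, 47.0, 62.1 and 60.7 CPM with Nova1 KO + Impact, at 44.0, 49.0, 60.4 and 53.9 CPM with Nova1 KO and at 46.9, 50.8, 57.3 and 61.6 CPM with WT. Dlx1 was at 15, 15.4, 16.6 and 13 CPM with Nova1 KO + Impact, at 17.0, 15.5, 17.6 and 12.1 CPM with Nova1 KO and at 13.7, 14.8, 14.2 and 12.7 CPM with WT. Every pair of groups overlapped for every factor, while 2.06% of all genes tested did not overlap between Nova1 KO + Impact and Nova1 KO, 4.75% between Nova1 KO + Impact and WT, and 6.51% between Nova1 KO and WT. Gata3 was at 24.7 ± 4.12, 26.4 ± 4.31 and 25.1 ± 2.98 CPM in Nova1 KO + Impact, Nova1 KO and WT neurons (SD, n = 4 each).

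Over the 15 group means, the Dlx genes followed their chromosomal neighbours. Among 14935 genes with a mean of at least 1 CPM in 3 or more groups, Pearson's r of log2 CPM was highest with Dlx1 for Dlx1as (0.997), and Dlx2 was among the 3 most like genes (0.988). The genes most like Dlx5 were Dlx6 (0.992), Dlx6as1 (0.987) and Dlx6as2 (0.982). Those most like Lhx6 were Dlx2 (0.977), Dlx6 (0.975) and Dlx1as (0.967). Isl1 and Nkx2-1 were at 0.967 with each other, and the vesicle gene Rab3b was at 0.968 with Isl1 and 0.933 with Nkx2-1. Meis2 had r of 0.691 to 0.821 with the Dlx genes and Lhx6, 0.536 with Isl1 and 0.456 with Nkx2-1, and was most like Plk2 (0.960), Akap5 (0.958) and Rab11fip2 (0.956). These correlations describe 15 means that share tissues, libraries and scaling, and genes overlapping on opposite strands may share reads.

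No factor passed the adjusted threshold with Nova1 deletion or added Impact in any of the 9 comparisons. Of the 72 possible tests, 54 had enough tags, 0 were called by edgeR or by DESeq2, and 3 had an unadjusted p under 0.05. All 8 factors were tested in hypothalamus, caudate putamen, TRAP and the 3 neuron comparisons, 2 in periaqueductal gray (Isl1, Meis2), 1 in substantia nigra (Meis2) and 3 in pituitary (Isl1, Meis2, Nkx2-1). The share of all genes called was 9.81% in substantia nigra, 10.4% in caudate putamen, 9.73% in periaqueductal gray and 12% in hypothalamus. It was 0.00815% in pituitary, 0.0307% in TRAP, 0.00674% for Nova1 KO + Impact against Nova1 KO, 0.378% for Nova1 KO + Impact against WT and 0.722% for Nova1 KO against WT. With the replicate number as a block, more genes were called in pituitary (0.269%) and in the same neuron comparisons (0.182%, 3.39% and 6.35%), and still 0 factors.

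**Figure D4:**
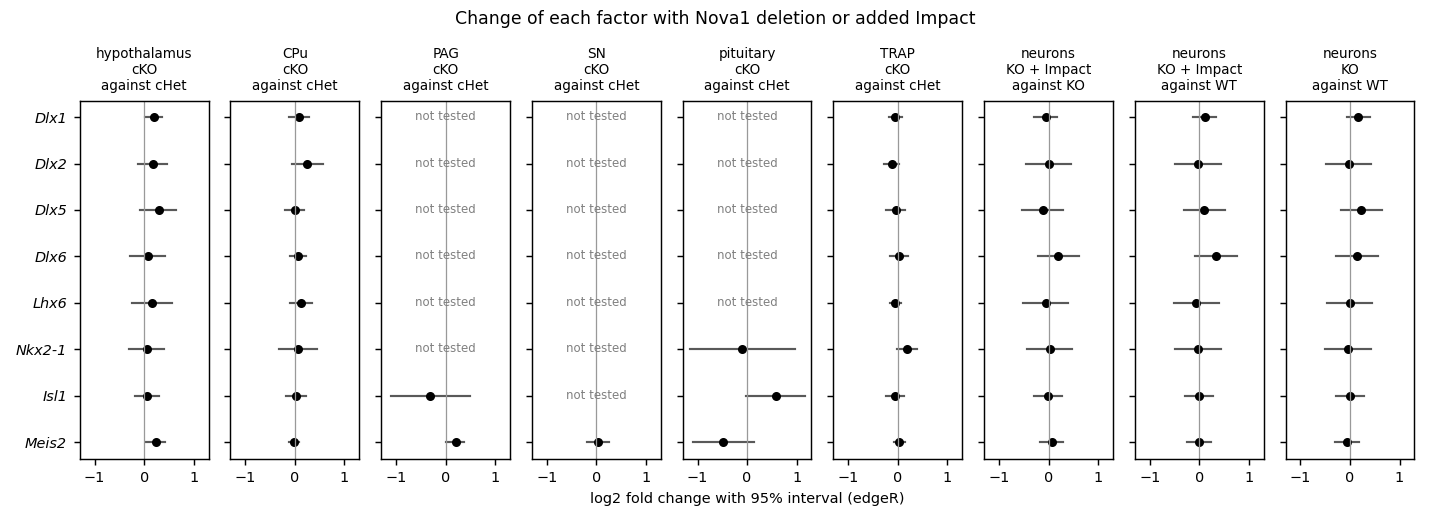
Log2 fold change of each factor with its 95% interval (edgeR, fits without a replicate block) in the 9 comparisons of genotype or virus. The widest intervals are those of pituitary and of Isl1 in periaqueductal gray (PAG, -1.11 to 0.50), and no change passes an adjusted p of 0.05; factors with too few tags are marked as not tested.

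In hypothalamus all 8 log2 fold changes were above 0, with a median of 0.17 beside 0 over all genes, and none was called. Leaving out 1 library turned the sign of 4 of them, to -0.01 for Dlx6 and -0.02 for Lhx6 (without cHet 1), to -0.04 for Isl1 (without cKO 3) and to between -0.09 and -0.01 for Nkx2-1 (without cKO 3, cKO 4 or cHet 4). Meis2 was at 37.3, 28.4, 30.6 and 33.8 CPM in cKO and at 25.1, 29.9, 29.9 and 26.3 CPM in cHet (0.23, SE 0.09, adjusted p = 0.104). Dlx1 had a log2 fold change of 0.19 (SE 0.09, adjusted p = 0.160), and Dlx5 of 0.29 (95% interval -0.08 to 0.65). Genotypes overlapped for every factor, and 16.2% of all genes did not overlap. The summed level of 4 GABAergic marker genes was higher in these cKO libraries (1520 to 1570 CPM) than in cHet (1380 to 1480 CPM), though Slc32a1 fell by 0.24 on the log2 scale (adjusted p = 0.00901); 1 of the 4 markers rose, 1 fell and none was at 0. Of 5 endothelial and pericyte markers 3 fell, with sums of 67.6 to 78.7 CPM in cKO and 90.8 to 108 CPM in cHet. Neither pattern was particular to hypothalamus. The endothelial and pericyte sum was also lower in cKO, without overlap, in periaqueductal gray, caudate putamen and substantia nigra (79.6 to 92.8 CPM in cKO, 111 to 133 CPM in cHet). The GABAergic sum was also higher in cKO of substantia nigra (2390 to 2430 CPM, 2180 to 2360 CPM in cHet), and overlapped in the other regions. The part of either list in the factors' values was not tested.

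In caudate putamen all 8 factors overlapped between genotypes (16.3% of all genes did not). Meis2 was at 397, 393, 385 and 381 CPM in cKO and at 384, 375, 423 and 398 CPM in cHet, a log2 fold change of -0.01 with a 95% interval of -0.12 to 0.09. Dlx5 and Dlx6 had 0.00 (-0.20 to 0.19) and 0.07 (-0.10 to 0.23). Dlx2 had the largest of the 8 changes, 0.25 (-0.06 to 0.57), and Nkx2-1 the widest interval, -0.33 to 0.44. The overlapping non-coding gene Dlx6as1, by contrast, fell (31.0 ± 3.25 CPM in cKO, 37.5 ± 2.25 CPM in cHet; SD, n = 4 each; -0.27, SE 0.08, adjusted p = 0.0466), and the difference between its change and that of Dlx6 was not tested. In hypothalamus Dlx6as1 was at -0.22 (adjusted p = 0.469) and in TRAP at -0.01 (adjusted p = 0.993).

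In periaqueductal gray Meis2 was at 50.1, 43.7, 46.9 and 55.3 CPM in cKO and at 46.4, 36.9, 44.1 and 44.5 CPM in cHet (0.20, SE 0.09, adjusted p = 0.165), with overlapping groups for it and Isl1 (15.4% of all genes did not overlap). In substantia nigra its log2 fold change was 0.03 (95% interval -0.18 to 0.25), and its groups overlapped too (15.8% of all genes did not). Averaged over the 4 brain regions, Meis2 was called higher in cKO by 0.11 (SE 0.04, adjusted p = 0.0323), the only factor of 8 called in a fit that called 39% of all genes, with 19.4% of all genes higher. That fit took libraries of different regions as independent, although some may come from the same animal. The call was lost without cKO replicate 1 (0.07, adjusted p = 0.229), cKO replicate 4 (0.0518), cHet replicate 1 (0.0538), cHet replicate 2 (0.0622) or cHet replicate 4 (0.0911), each left out of all regions, and without the filter on low counts (0.0550). The genotype effect was not shown to differ between regions for any factor, with 0 of 8 called by edgeR, 1 at an unadjusted p under 0.05 (Dlx2, 0.0421) and 0.318% of all genes called. DESeq2 was not run on that interaction.

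Pituitary gave the only factors whose genotypes did not overlap, without a call. Isl1 was at 22.3, 22.8 and 26.5 CPM in cKO and at 21.9, 12.7 and 13.6 CPM in cHet (0.58, 95% interval -0.02 to 1.17, adjusted p = 0.767). Meis2 was at 12.1, 18.5 and 16.8 CPM in cKO and at 18.9, 29.1 and 19.2 CPM in cHet (-0.48, 95% interval -1.10 to 0.14, adjusted p = 0.825). Groups did not overlap for 2 of the 3 factors tested, beside 11.5% of all genes. Marker sums moved in the same libraries: 6 hormone genes summed to 68700 to 79400 CPM in cKO and 92800 to 104000 CPM in cHet, with none at 0. Of the 6, 1 fell, Lhb (77.0 ± 31.6 CPM in cKO, 250 ± 39.6 CPM in cHet; SD, n = 3 each; -1.70, SE 0.22, adjusted p = 0.00411), the luteinizing hormone gene, which was named after its value was seen. It was the only gene called in this comparison, and 0 genes were called without cHet 2 or without cKO 3. The sum of 5 oligodendrocyte genes was 53.0 to 114 CPM in cKO and 121 to 297 CPM in cHet, and that of 4 microglia genes 46.6 to 63.1 CPM in cKO and 37.6 to 41.7 CPM in cHet, with none called. The ribosomal RNA gene Rn45s took 32.6%, 30% and 15.4% of tags in cKO replicates 1 to 3, against 37.8%, 40.8% and 25.6% in cHet replicates 1 to 3, lower in cKO in each same-numbered pair. The part of these markers and of Rn45s in the values of Isl1 and Meis2 was not tested. Dlx5 had 0, 1.32 and 3.36 CPM in cKO and 0, 0 and 0.700 CPM in cHet, from at most 10 tags per library, and did not pass the filter.

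In TRAP RNA, where Nova1 itself fell by 3.03 on the log2 scale, the 8 factors had log2 fold changes between -0.12 (Dlx2, 95% interval -0.27 to 0.02) and 0.19 (Nkx2-1, -0.01 to 0.38). Nkx2-1 ran from 13.9 to 16.7 CPM in cKO with a median of 15.6, and from 11.1 to 14.9 CPM in cHet with a median of 14.0. In neurons, Nova1 KO against WT gave changes between -0.06 (Meis2) and 0.23 (Dlx5, -0.19 to 0.64). Intervals here come from the fit without a replicate block, though same-numbered neuron samples deviated together. Dlx1 changed by 0.17, with an interval of -0.06 to 0.40 without the block. With the block it was 0.17 (0 to 0.33, edgeR adjusted p = 0.257). For Meis2 the interval was -0.30 to 0.18 without the block and -0.16 to 0.05 with it. Adding Impact to Nova1 KO gave between -0.12 (Dlx5) and 0.20 (Dlx6, -0.21 to 0.62). Dlx6 had the largest value of Nova1 KO + Impact against WT, 0.34 (-0.08 to 0.76), from 2.58, 3.07, 2.04 and 2.70 CPM with Nova1 KO + Impact and 2.37, 1.66, 2.23 and 1.9 CPM with WT. The neuron comparisons share their groups, so their values are not separate evidence.

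A list of 57 further forebrain and GABAergic factors was read in the same fits. In hypothalamus 0 of 51 tested rose and 1 fell, the retinoic acid receptor gene Rarb (-0.61, SE 0.15, adjusted p = 0.0109), with 4.68 ± 0.748 CPM in cKO and 7.17 ± 0.868 CPM in cHet (SD, n = 4 each). In periaqueductal gray 5 of 42 rose and 0 fell, among them the homeobox genes Pax6 (0.70, adjusted p = 0.0394) and Otx2 (0.64, adjusted p = 0.0424) and also Gata3 (0.28, adjusted p = 0.0468). In caudate putamen 3 of 41 rose, among them Ebf1 (0.49) and Meis3 (0.44), and 1 fell, the retinoid receptor gene Rxrg (-0.32). In substantia nigra 1 of 42 rose (Six3, 0.41) and 0 fell. The share called was 2.38% in substantia nigra (9.81% of all genes), 9.76% in caudate putamen (10.4%), 11.9% in periaqueductal gray (9.73%) and 1.96% in hypothalamus (12%). By direction, the 11.9% in periaqueductal gray and 2.38% in substantia nigra all rose, beside 4.33% and 4.35% of all genes. The 1.96% in hypothalamus fell, beside 6.42% of all genes.

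In pituitary (29 tested), TRAP (46) and both comparisons of Nova1 KO + Impact (51 each) 0 of these factors were called, and in Nova1 KO against WT 1 of 51 fell, Sox6 (-0.38, adjusted p = 0.0397), a factor of medial eminence interneurons. The median log2 fold change of the list was 0.05 (substantia nigra), 0.06 (caudate putamen), 0.17 (periaqueductal gray), 0 (hypothalamus) and -0.01 (TRAP), beside 0 over all genes in each. Of 15 partners of LIM and TALE factors such as the Ldb, Lmo and Pbx genes, the number that rose was 2 (substantia nigra), 3 (caudate putamen), 3 (periaqueductal gray) and 1 (hypothalamus), and 0 fell. These are 13.3%, 20%, 20% and 6.67% of the list, beside 4.35%, 5.32%, 4.33% and 5.57% of all genes that rose in the same regions. Of 23 genes reported in mice to depend on these factors, 2 rose and 1 fell in hypothalamus (13% of those tested), 3 rose in caudate putamen (13%), 2 rose and 1 fell among 20 tested in periaqueductal gray (15%) and 2 fell among 19 in substantia nigra (10.5%). These shares were near those of all genes called in either direction, 12%, 10.4%, 9.73% and 9.81% in the same order. By direction, 5.32% of all genes rose in caudate putamen and 5.46% fell in substantia nigra. In Nova1 KO against WT 1 of 21 fell, and in TRAP 0 of 22 were called.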

How the data were processed

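RNA from 62 mouse samples was sequenced after polyA selection, per the labels' protocols. The authors deposited 1 table per sample with a tag number and an RPKM value for 23038 genes. In 6 tables (pituitary) the deposited tag numbers are whole counts. In the other 56, 4.56 to 18.8% of the deposited values are fractional, so they were taken as estimated counts and rounded to whole numbers. The deposited RPKM equals the tag number over exon length and library total (largest difference 1.06e-12 percent) and served only for that check. Build mm10 and edgeR are named in the submitters' processing notes; no source used here names the aligner, the counting program or its handling of strand. Rn45s took up to 40.8% of tags in pituitary.

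Genes passing filterByExpr (minimum count 10, minimum total 15) entered edgeR 4.0.16 (R 4.3.3; TMM scaling, quasi-likelihood test), tissue by tissue, the 3 neuron groups together. P-values were adjusted over all genes tested (Benjamini-Hochberg, threshold 0.05); "rose", "fell" and "called" refer to it. DESeq2 1.42.0, other size factors, no filter, a replicate block, sex as a term in TRAP and leaving out each library were the alternatives. Same-numbered samples deviated together in pituitary (r of 0.113 to 0.126) and in neurons (0.163 to 0.357). In TRAP and between genotypes of a brain region r ran from -0.18 to 0.143. Own numbers matched best there in at most 3 of 4 pairs (periaqueductal gray). Between brain regions of cHet mice r was -0.0152 to 0.148. Own numbers matched best in 4 of 4 pairs for hypothalamus and caudate putamen, and in 2 or 3 of 4 for the others. Pairing between regions is thus not settled. Fold changes are not given where a group had 3 tags or fewer; pooled tag ratios with 95% counting intervals replace them. The fits were tested on simulated data. Sequences are RefSeq's. The 8 members, the gene lists and the tests were chosen with earlier results of these data known. Beside the members, the text names the label and GABA checks, the 3 most like genes, and up to 3 rising and 3 falling listed factors past the threshold. Some genes that this rule names are not reported here.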

Additional observations from a re-analysis of the deposited data

Results flagged for a closer look

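A single library stood apart in 2 of the 77 sets of 4 to 6 libraries examined, by its gap to the nearest library relative to the whole range; chance alone sets about 1 in 20 such sets apart. Dlx5 was at 2.55 CPM in hypothalamus cHet 3, where the other cHet libraries were at 3.11 to 3.18 CPM. Meis2 was at 474 CPM in TRAP cKO 1, where the other cKO libraries were at 390 to 420 CPM and cHet libraries at 384 to 433 CPM.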

How the results depend on the processing

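In 802 refits of single factors in the 9 comparisons of genotype or virus, under all alternatives, 0 were called and 87 changed sign without a call. The number of genes called moved more. With the replicate block it was 889 in substantia nigra (1457 without), 33 in pituitary (1), 27 for Nova1 KO + Impact against Nova1 KO (1), 503 for Nova1 KO + Impact against WT (56), 942 for Nova1 KO against WT (107) and 85 for the interaction of genotype and region (51). The block changed no call of a factor. With DESeq2 it was 5 in pituitary, 13 in TRAP (4), 8 for Nova1 KO + Impact against Nova1 KO, 155 against WT and 320 for Nova1 KO against WT. Without the filter on low counts it was 75 in pituitary and 2 for Nova1 KO + Impact against Nova1 KO, and the average over regions called 0 factors (1 with it). Leaving out 1 library gave 1060 to 2058 genes in hypothalamus, 764 to 1520 in periaqueductal gray, 826 to 1939 in caudate putamen, 705 to 1483 in substantia nigra and 0 to 9 in pituitary. It gave 46 to 103 for Nova1 KO against WT, 1 to 3 and 22 to 50 for Nova1 KO + Impact against Nova1 KO and WT, 8 to 48 for the interaction, and 0 to 1 factors for the average over regions. The cause of these shifts was not tested. Numbers did not pair samples steadily in TRAP or between genotypes of a brain region, and pairing between regions was not settled. With unscaled total tags, or total tags less Rn45s, in place of scaled library sizes, 67 of 240 levels moved by more than 1 SD. Few tags limit Dlx values in midbrain, and low depth limits all pituitary values.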
